A study of Mus musculus with 4 samples.

Results

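Fibril-associated collagens with interrupted triple helices (FACIT) and type VI collagen are the collagens that do not form the thick fibrils of connective tissue themselves but coat them, join them to each other or link them to cells. The genes described here were taken by symbol from a list of 10 such chains: Col9a2, Col9a3, Col12a1, Col14a1, Col16a1, Col21a1 and Col22a1 of the FACIT class, and Col6a1, Col6a2 and Col6a3 of type VI. Of these, 9 had a row among the 23107 genes of the tables, and Col21a1 was not analysed here. All 9 passed the filter on low values, which kept 14297 genes.

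The samples came from mandibular molars of mice at postnatal day 8, and the tissue was the dental follicle, a sac of mesenchyme that encloses a tooth before it erupts. Cells positive for the red reporter tdTomato, described in the labels as PTHrP-positive follicle cells, were sorted after tamoxifen at postnatal day 3, and amplified cDNA was sequenced. The conditional knockouts (cKO, labelled Ptch1(-/-), n = 2 libraries, cKO_0 and cKO_1) were compared with conditional heterozygotes (cHet, labelled Ptch1(+/-), n = 2 libraries, cHet_0 and cHet_1). Ptch1 encodes the receptor that holds hedgehog signalling off. Both groups carry at least 1 targeted copy, had tamoxifen and were sorted for the same reporter, and no wild-type group is compared here. The labels name neither the driver of recombination nor the number of animals pooled, and the p-values measure the spread between libraries, which may be technical.

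In a FACIT molecule short triple-helical stretches alternate with other domains, and the molecule lies along a fibril with part of it projecting outward. Type IX, a heterotrimer of alpha-1, alpha-2 and alpha-3 chains, decorates the type II fibrils of cartilage, whereas types XII and XIV are homotrimers on type I fibrils of ligament, tendon and skin. Type VI molecules join an alpha-1, an alpha-2 and an alpha-3 chain and assemble into beaded microfilaments around cells. The periodontal ligament, which arises from the dental follicle, is a tissue rich in types I, III, XII and VI.

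The triple helix needs a glycine at intervals of 3 residues, and that repeat can be read in the coding sequences. The stretches below show 27 codons from the start of the longest uninterrupted run in the 2 type IX chains, in Col12a1 and in the 3 type VI chains, the members on which the results turn. They are given on the coding strand, 5′ to 3′, from GENCODE vM21 (GRCm38, the same assembly as mm10), with the glycine codons in capitals.
Col9a2: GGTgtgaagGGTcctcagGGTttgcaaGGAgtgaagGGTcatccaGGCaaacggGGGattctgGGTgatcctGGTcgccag
Col9a3: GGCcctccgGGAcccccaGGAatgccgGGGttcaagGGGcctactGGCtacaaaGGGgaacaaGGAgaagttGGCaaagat
Col12a1: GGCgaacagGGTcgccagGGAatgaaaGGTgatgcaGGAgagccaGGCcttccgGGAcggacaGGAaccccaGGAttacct
Col6a1: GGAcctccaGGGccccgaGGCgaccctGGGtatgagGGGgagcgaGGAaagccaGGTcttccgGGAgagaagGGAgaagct
Col6a2: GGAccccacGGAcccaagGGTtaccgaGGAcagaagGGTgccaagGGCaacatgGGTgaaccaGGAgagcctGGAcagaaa
Col6a3: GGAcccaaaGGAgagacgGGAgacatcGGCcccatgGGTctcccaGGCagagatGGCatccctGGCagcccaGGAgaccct

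Runs of at least 10 such triplets made up 75.9% of the 688 codons of Col9a2 and 76.3% of the 680 codons of Col9a3, in 4 runs each, of which the longest held 113 triplets in either gene. Col12a1 and Col14a1, the related chains of types XII and XIV, also had 4 runs each, with 78 triplets in all. Those runs lay at the 3′ end and took up 7.63% of the 3065 codons of Col12a1 and 13.01% of the 1798 codons of Col14a1. Col16a1 was the most broken up, with 13 runs over 53.0% of its 1580 codons, and Col22a1 had 8 runs over 59.9% of its 1613 codons. The helix of the type VI chains was short: Col6a1 had 1 run of 87 triplets (25.5% of 1025 codons), and the longest of 3 runs in Col6a2 also held 87. The 2 runs of Col6a3 summed to 87 triplets as well, but took up 7.95% of its 3284 codons.

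**Figure D1:**
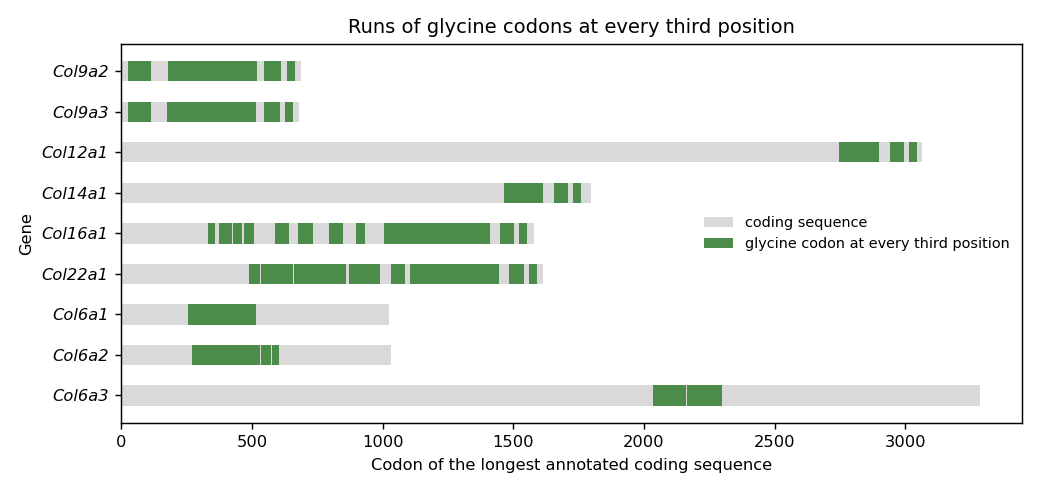
Position of runs of glycine codons at intervals of 3 codons, at least 10 triplets long (green), along the longest annotated coding sequence of each gene (grey, in codons). Runs fill most of Col9a2 and Col9a3, lie at the 3′ end of Col12a1 and Col14a1, and take up a shorter inner stretch of the type VI chains.

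The gene loci, in GENCODE vM21 coordinates, were Col9a2 (chromosome 4, 121039385 to 121055322, plus strand), Col9a3 (chromosome 2, 180597790 to 180622189, plus), Col12a1 (chromosome 9, 79598991 to 79718831, minus), Col14a1 (chromosome 15, 55307750 to 55520803, plus), Col16a1 (chromosome 4, 130047840 to 130099283, plus) and Col22a1 (chromosome 15, 71795795 to 72034227, minus). Col6a3 lies on chromosome 1 (90765923 to 90843971, minus). Col6a2 (chromosome 10, 76595762 to 76623630, minus) and Col6a1 (chromosome 10, 76708792 to 76726168, minus) are neighbours on the same strand, 85161 bases apart, with 0 protein-coding genes between them. Annotated genes on the opposite strand overlap Col9a3 (Tcfl5), Col12a1, Col14a1 and Col22a1. The sources used here do not say if counting used strand, so these 4 values may include reads of an overlapping gene. Col6a3 is overlapped by Gm36970 on its own strand, so its value may include reads of that gene with either way of counting.

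The data were deposited as scaled counts, which are estimated gene counts put on a common scale across libraries, and as FPKM, which are also divided by transcript length. Scaled totals ran from 69361760 to 71228342. Library cHet_1 stood apart: 9850 genes reached 1 FPKM there, against 11355 to 12360 in the other libraries, and 34 genes with 100 or more scaled counts in all the others were at 0 in it, against 0 to 3 such genes elsewhere. Ptch1 itself was listed at 22420 and 23341 scaled counts in cKO and at 12867 and 5438 in cHet. Both cKO libraries were above both cHet libraries, with a log2 fold change of 1.45 (SE 0.39; adjusted p = 0.913 in limma). A count over the whole gene does not isolate the targeted part, so it does not check the labels. Gli1, a hedgehog target gene, had 6388 and 6955 scaled counts in cKO and 4132 and 3350 in cHet. The follicle and mesenchyme markers were detected, with summed levels of 636 and 409 FPKM in cKO and 603 and 519 FPKM in cHet over 5 genes (Pdgfra, Prrx1, Vim, Pthlh and Pth1r). Vim alone had 305 and 208 FPKM in cKO and 320 and 247 FPKM in cHet. Osteoblast markers (Runx2, Sp7, Alpl, Ibsp and Bglap) summed to more, at 1643 and 1127 FPKM in cKO and 1588 and 1325 FPKM in cHet. Markers of dental epithelium summed to 3204 and 5485 FPKM in cKO and 1677 and 2265 FPKM in cHet over 4 genes, most of it the enamel matrix gene Ambn. Epcam was lower in both cKO libraries. So was Cdh1 in FPKM (9.31 and 33.3 in cKO, 41.9 and 41.9 in cHet), though its groups overlapped in scaled counts. Krt14 overlapped between the groups.

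The alpha-2 and alpha-1 chains of type VI were the most abundant of the 9 genes per length (FPKM). Col6a2, the alpha-2 chain, had 384 and 465 FPKM in cKO and 363 and 408 FPKM in cHet, and ranked between 77 and 110 among all genes of a library. Col6a1, the alpha-1 chain, had 288 and 306 FPKM in cKO and 271 and 220 FPKM in cHet. Both chains were high in every library, and the ranges of these 2 genes over the 4 libraries did not overlap each other. Below them in the mean over the 4 libraries stood Col16a1 (159 FPKM), Col9a2 (102 FPKM), Col6a3 (63.8 FPKM), Col12a1 (48.9 FPKM), Col9a3 (22.8 FPKM), Col22a1 (5.57 FPKM) and Col14a1 (3.71 FPKM). From Col6a1 downward each gene's range overlapped that of the next, so only the place of Col6a2 at the top exceeded the spread between libraries. The spread itself differed by gene: the highest library had 1.28 times the lowest for Col6a2, 1.39 times for Col6a1 and 1.75 times for Col6a3, but 121 times for Col14a1 and 395 times for Col22a1.

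**Figure D2:**
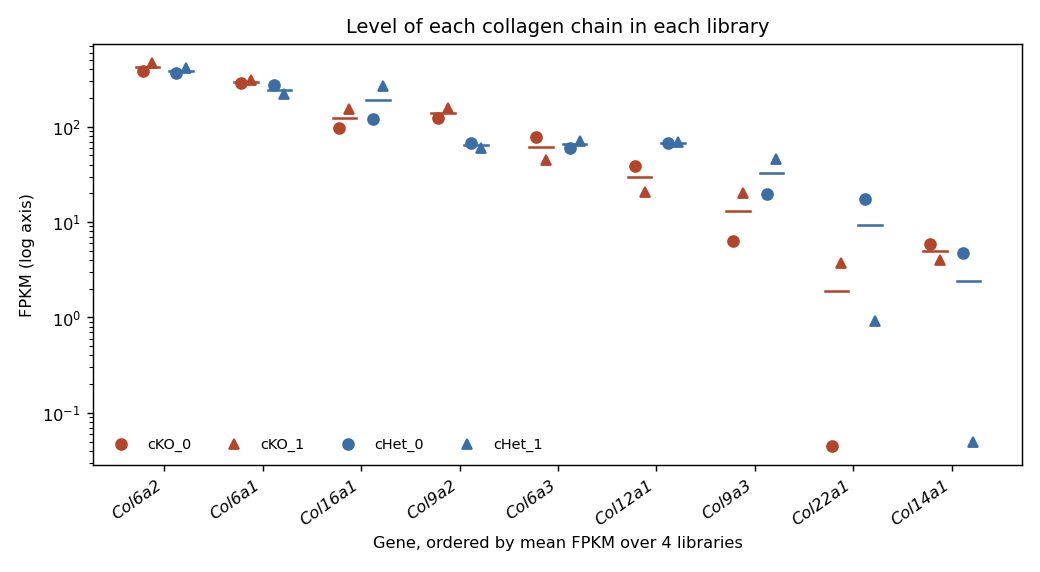
FPKM of each gene (log axis) in the cKO libraries (red, left) and the cHet libraries (blue, right), with circles for libraries numbered 0, triangles for those numbered 1 and bars at the group means. Col6a2 and Col6a1 lie close together in all 4 libraries, Col9a2 is higher and Col12a1 lower in both cKO libraries, and Col22a1 and Col14a1 each fall below 0.1 FPKM in 1 library.

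The comparison of cKO with cHet asks which of these chains differ when both copies of Ptch1 are targeted in follicle cells. Fold changes below are cKO over cHet from limma on log2(scaled count + 3), a scale that understates the change of low genes, and intervals are 95% intervals. Limma called 0 of the 9 genes higher and 0 lower at an adjusted p under 0.05 (Benjamini-Hochberg over 14297 genes), where the background was 0% in each direction. At an unadjusted limma p under 0.05 there were 2 of the 9, Col9a2 and Col12a1, against 433 of all genes tested (3.03%). In scaled counts, both cKO libraries lay above both cHet libraries for 4 of the 9 (Col9a2, Col14a1, Col6a1 and Col6a2), against a background of 18% of all genes, and below them for 1 (Col12a1), against a background of 14.2%. In either direction that is 5 of 9, against 32.2% of all genes. The median log2 fold change of the 9 was -0.19, beside 0.12 over all genes tested. In bulk RNA, fewer cells that express a gene and less RNA per cell cannot be told apart.

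Col9a2, the alpha-2 chain of type IX, was listed at 22420 and 25727 scaled counts in cKO and at 12784 and 9007 in cHet. Both cKO libraries were above both cHet libraries, and this was so in FPKM as well, at 123 and 157 in cKO and 67.8 and 60.1 in cHet. The fitted fold was 2.24 (interval 1.45 to 3.45; log2 fold change 1.16, SE 0.27), with an unadjusted limma p of 0.00262 and an adjusted p of 0.913. It was the 19th lowest p of all genes tested. With each library left out in turn the log2 fold change lay between 0.91 and 1.41.

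Col9a3, the alpha-3 chain that joins the same heterotrimer, had 1182 and 4109 scaled counts in cKO and 3749 and 9972 in cHet. The groups overlapped: cKO_1 lay above cHet_0, and the libraries numbered 1 were the higher ones in either group. Its log2 fold change was -1.47 (SE 0.68; adjusted p = 0.913 in limma), and -0.57 without cKO_0. The FPKM ratio of Col9a2 to Col9a3 was 19.6 and 7.80 in cKO and 3.46 and 1.32 in cHet, so the groups did not overlap, and the exact permutation test gave p = 0.333 (two-sided), the smallest that 2 libraries against 2 allow. Col9a1, the remaining chain of type IX, was listed at 0.00402 and 1.12 FPKM in cKO and at 0.578 and 0.00225 FPKM in cHet. In each library the 3 chains thus stood at unequal levels, with alpha-2 the highest and alpha-1 the lowest.

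Type IX is best known from cartilage, so the cartilage genes were set beside it. Their summed level was 36.1 and 35.4 FPKM in cKO and 67.1 and 19.8 FPKM in cHet over 9 genes, so the groups overlapped. Sox9 gave 21.6 and 19.6 FPKM of this sum in cKO and 41.8 and 4.92 FPKM in cHet. Matn1, the gene of a cartilage matrix protein, was at 0 in both cKO libraries and in cHet_1, and at 0.81 scaled counts in cHet_0. Col2a1, the type II collagen gene on whose fibrils type IX sits, had 670 and 2964 scaled counts in cKO and 405 and 1687 in cHet. Of 8 cartilage genes tested, limma called 0 higher and 0 lower. Those with the lowest p were Hapln1, a link protein of hyaluronan (log2 fold change -1.53, SE 0.39), Matn3, another matrilin gene (-5.65, SE 2.53), Acan, the aggrecan gene (2.26, SE 1.81), and Sox9, the cartilage transcription factor gene (0.40, SE 0.55). In scaled counts the groups did not overlap for 1 of the 8 higher in cKO, against 18% of all genes. This was Acan, at 702 and 629 in cKO and 440 and 40.8 in cHet. They did not overlap for 2 lower, Hapln1 and Matn3, against 14.2% of all genes. The part of other cell types in the Col9a2 difference was not tested.

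The promoter of Col9a2, from 250 bases before to 50 after the RefSeq start (GRCm38.p6, plus strand), is shown because this gene had the lowest p of the members with a higher value in cKO, and those of Col6a1 and Col6a2 (both minus strand, printed 5′ to 3′) because these neighbours had the steadiest levels. By the GENCODE coordinates above, each of these genes begins inside its window, upstream of the RefSeq start used. More of each printed window thus lies within the annotated gene than before it. For Col6a2, the other listed RefSeq start, not shown, is the one that lies at the GENCODE start. Capitals mark the GC box GGGCGG on either strand, which can overlap itself.
Col9a2, chr4:121039316-121039615: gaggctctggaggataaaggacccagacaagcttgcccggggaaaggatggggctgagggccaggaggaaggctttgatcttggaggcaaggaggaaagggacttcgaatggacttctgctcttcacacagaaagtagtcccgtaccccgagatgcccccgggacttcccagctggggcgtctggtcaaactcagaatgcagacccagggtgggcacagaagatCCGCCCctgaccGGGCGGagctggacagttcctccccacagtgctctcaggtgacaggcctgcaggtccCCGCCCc
Col6a1, chr10:76725995-76726294: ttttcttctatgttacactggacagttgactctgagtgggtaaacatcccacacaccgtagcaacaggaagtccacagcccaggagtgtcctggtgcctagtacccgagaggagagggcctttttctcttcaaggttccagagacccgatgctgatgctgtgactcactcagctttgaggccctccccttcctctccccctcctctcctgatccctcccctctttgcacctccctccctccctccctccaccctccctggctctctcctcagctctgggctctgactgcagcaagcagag
Col6a2, chr10:76623355-76623654: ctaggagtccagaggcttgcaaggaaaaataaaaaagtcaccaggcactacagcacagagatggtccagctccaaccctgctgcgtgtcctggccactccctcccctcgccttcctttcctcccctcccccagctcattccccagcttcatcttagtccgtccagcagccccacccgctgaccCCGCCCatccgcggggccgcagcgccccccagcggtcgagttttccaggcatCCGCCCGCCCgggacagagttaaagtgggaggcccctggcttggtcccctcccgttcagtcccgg

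RefSeq promoters were matched for 5 members (Col9a2, Col16a1, Col6a1, Col6a2 and Col6a3). The GC box occurred 3 times in the window of Col9a2, 2 times in that of Col16a1, 3 times in the window shown for Col6a2, 1 time in that of its other listed start and 0 times in those of Col6a1 and Col6a3, and 35.7% of 32851 promoters hold it. The letters GACCACCCA, the consensus bound by GLI factors, occurred in 0 of these windows, also with 1 mismatch, where 0.253% of all promoters hold them exactly and 6.55% at 1 mismatch. The TATA box letters TATAAA were in 0 of the windows as well, against 13.6% of all promoters. The SOX motif searched as AACAAT was in 0, against 10.7%, and the RUNX motif searched as TGTGGT in 0, against 16.8%. Both strands were searched for each motif.

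Col12a1, the chain of the type XII homotrimer that coats type I fibrils of ligament, was the 1 member whose cKO libraries both lay below both cHet libraries. It was listed at 33907 and 31399 scaled counts in cKO and at 57294 and 114990 in cHet. The cKO libraries differed 1.08-fold, while cHet_1 was 2.01 times cHet_0. The fitted fold was 0.402 (interval 0.236 to 0.685; log2 fold change -1.31, SE 0.33), with an unadjusted limma p of 0.00427, the 28th lowest, and an adjusted p of 0.913. Without cHet_1 the log2 fold change was -0.81, and without cHet_0 it was -1.82. In FPKM the spread sat in the other group, with 39.0 and 20.6 FPKM in cKO and 66.8 and 69.2 FPKM in cHet, and the unadjusted limma p on log2(FPKM + 1) was 0.0503.

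The 2 tables thus place the variation of Col12a1 in different libraries. For Col12a1, 1 FPKM corresponded to 870 and 1522 scaled counts in cKO and 858 and 1661 in cHet, so that the highest library had 1.94 times the lowest, with both libraries numbered 1 above both numbered 0. Col14a1 showed the same split, at 470 and 788 in cKO and 464 and 855 in cHet. Col6a1 did not, at 281 and 293 in cKO and 285 and 281 in cHet. Col6a2 went the other way, at 260 and 218 in cKO and 267 and 212 in cHet. So did Col9a2 (182 and 164 in cKO, 188 and 150 in cHet) and Col16a1 (361 and 339 in cKO, 371 and 309 in cHet). Col9a3, Col22a1 and Col6a3 were higher in both libraries numbered 1, by less than Col12a1 and Col14a1. Over 13416 genes above 0 in all libraries, the median number of scaled counts per FPKM was 194 and 319 in cKO and 192 and 342 in cHet. The libraries numbered 1 therefore differ from those numbered 0 in how counts map to FPKM, in both groups and in a direction that depends on the gene. Levels compared across these libraries in FPKM carry that difference.

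**Figure D3:**
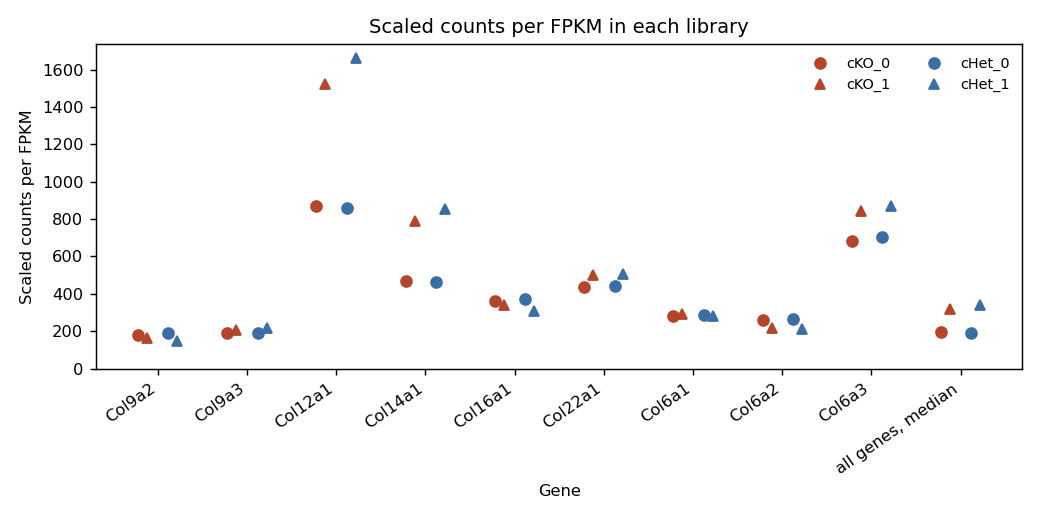
Scaled counts per FPKM for each gene, and the median over all genes, in the cKO libraries (red, left) and the cHet libraries (blue, right), with circles for libraries numbered 0 and triangles for those numbered 1. For Col12a1 and Col14a1 the triangles lie far above the circles in both groups, whereas for Col6a1 all 4 libraries lie between 281 and 293.

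Col14a1, the type XIV chain closest to Col12a1 in domain order, was a low gene that was almost missing from 1 library. It had 2793 and 3191 scaled counts in cKO and 2221 and 41.9 in cHet. The groups did not overlap in scaled counts, but in FPKM they did, at 5.94 and 4.05 in cKO and 4.79 and 0.0489 in cHet. Its log2 fold change was 3.24 (SE 1.65, interval -0.57 to 7.05, adjusted p = 0.913 in limma), 0.43 without cHet_1 and 6.06 without cHet_0. The size of this difference therefore rests on cHet_1, the library with the most genes at 0.

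Col16a1, whose product is found near basement membranes and microfibrils in skin, had the highest mean level of the FACIT genes over the 4 libraries, although Col9a2 was above it in FPKM in both cKO libraries. It had 35157 and 51549.7 scaled counts in cKO and 44968 and 81934 in cHet. The groups overlapped, and again the library numbered 1 was the higher in each group. The log2 fold change was -0.51 (SE 0.34; interval -1.29 to 0.26; adjusted p = 0.913 in limma), and -0.08 without cHet_1 and -0.24 without cKO_0.

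Col22a1, the type XXII chain known from the junction of muscle and tendon, varied most between libraries of 1 group. It was listed at 19.4 and 1861 scaled counts in cKO and at 7747 and 459 in cHet, so that cKO_1 was 96.0 times cKO_0 and cHet_0 was 16.9 times cHet_1. The groups overlapped, and the log2 fold change of -3.21 (SE 2.21; adjusted p = 0.913 in limma) was -0.02 without cKO_0. Skeletal muscle markers were near 0: 5 of the 7 (Myod1, Myog, Pax7, Ckm and Myh3) were at 0 in every library, and the summed level of the 7 was 0.891 and 0.0249 FPKM in cKO and 0.0672 and 0.701 FPKM in cHet. The tendon and ligament genes Mkx and Tnmd had 12601 and 11058 scaled counts (Mkx) and 14756 and 7621 (Tnmd) in cKO, and 9016 and 24639.9 (Mkx) and 13525 and 15431 (Tnmd) in cHet. Scx, the remaining gene of the tendon list, was low, at 1.08 and 128 scaled counts in cKO and 86.6 and 276 in cHet.

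Type VI was the steadiest group. Col6a1 had 80977 and 89724 scaled counts in cKO and 77463 and 61708 in cHet, and Col6a2 had 99901 and 101371 in cKO and 96928 and 86545 in cHet. For both genes the cKO libraries lay above the cHet libraries in scaled counts, by little: the fitted folds were 1.23 for Col6a1 (interval 0.837 to 1.82; adjusted p = 0.913 in limma) and 1.10 for Col6a2 (interval 0.755 to 1.60; adjusted p = 0.956). In FPKM the groups of Col6a2 overlapped, at 384 and 465 in cKO and 363 and 408 in cHet. Col6a3, the long alpha-3 chain, had 53848 and 37981 scaled counts in cKO and 42774 and 61883 in cHet. Its groups overlapped, and its fitted fold was 0.879 (interval 0.558 to 1.39; adjusted p = 0.942 in limma). Its log2 fold change of -0.19 turned to 0.080 without cHet_1 and 0.066 without cKO_1. These intervals leave room for changes of up to 1.82-fold in Col6a1 and do not show that the levels are equal.

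Summed over the 3 type VI chains, the level was 751 and 816 FPKM in cKO and 695 and 699 FPKM in cHet (exact permutation p = 0.333, two-sided). The FPKM ratio of Col6a2 to Col6a1 was 1.33 and 1.52 in cKO and 1.34 and 1.86 in cHet, and that of Col6a3 to Col6a1 was 0.273 and 0.147 in cKO and 0.223 and 0.324 in cHet. Although the chains enter the molecule in equal numbers, alpha-3 mRNA was thus listed below alpha-1 in FPKM in each library. Scaled counts per FPKM of Col6a2 and Col6a3 differed between libraries numbered 0 and 1 in both groups, and both ratios carry that difference. The summed level of the 6 FACIT genes was 272 and 357 FPKM in cKO and 298 and 440 FPKM in cHet (exact permutation p = 0.667, two-sided). They made up 26.6% and 30.4% of the summed level of the 9 genes in cKO, against 30.0% and 38.6% in cHet.

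The other chains of these types were low. Col6a6 was listed at 0 in all libraries, and Col19a1 was not tested after the filter. Summed over 6 genes (Col9a1, Col19a1, Col20a1, Col6a4, Col6a5 and Col6a6) the level was 0.919 and 2.97 FPKM in cKO and 2.92 and 0.0157 FPKM in cHet. Col6a4 and Col6a5, chains related to alpha-3, had 144 and 530 scaled counts (Col6a4) and 405 and 2.27 (Col6a5) in cKO, and 1009 and 6.28 (Col6a4) and 100.4 and 1.05 (Col6a5) in cHet. Of the 4 that were tested, limma called 0 higher and 0 lower, and all 4 had their lowest value in cHet_1. For Col9a1 and Col6a5 that value, 1.05 scaled counts each, was near the floor. It stood beside 1.08 in cKO_0 for Col9a1 and 2.27 in cKO_1 for Col6a5.

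**Figure D4:**
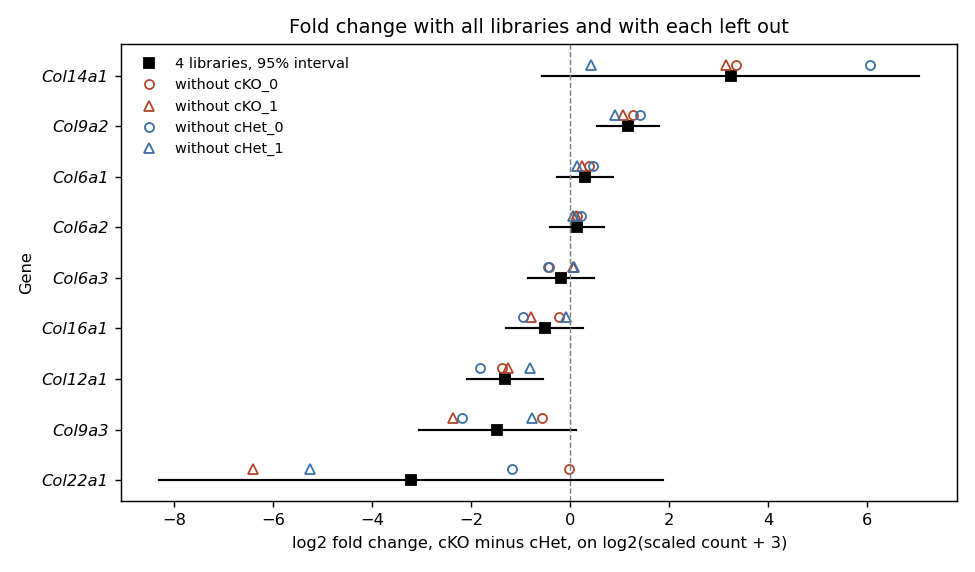
Log2 fold change of cKO over cHet for each gene, from scaled counts with a pseudocount of 3, with 95% intervals from limma (black) and the values with 1 library left out (open symbols). The intervals of Col9a2 and Col12a1 exclude 0 without adjustment for the number of genes. Those of the type VI chains include 0, and those of Col14a1 and Col22a1 span over 7 log2 units.

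Fibrillar collagens, on which the FACIT chains sit, had fitted log2 fold changes below 0 for 7 of 9 tested and above 0 for 2, where 6250 of 14297 genes were below 0. In scaled counts the groups did not overlap for 6 of the 9, all lower in cKO, against 14.2% of all genes lower and 32.2% in either direction. Limma called 0 in either direction. In FPKM, Col5a1 and Col5a2 of these 6 overlapped, and Col5a3 was higher in both cKO libraries (5.40 and 2.91, against 2.87 and 0.720 in cHet). Their median log2 fold change was -0.35. The lowest p belonged to Col11a1 (log2 fold change -0.95, SE 0.25) and Col11a2 (-3.45, SE 1.26), chains of type XI that seed thin fibrils, followed by Col1a2 (-0.66, SE 0.46), the second chain of type I, and Col5a1 (-0.35, SE 0.25), which limits fibril width. The summed level of the 9 genes was 15984 and 15824 FPKM in cKO and 22221 and 23569 FPKM in cHet.

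Set against Col1a1, the main chain of type I, in the same library, 2 of the 3 type VI chains stood higher in cKO. Col6a2 stood at 56.5 and 50.7 FPKM per 1000 FPKM of Col1a1 in cKO and at 31.6 and 27.7 in cHet, and Col6a1 at 42.4 and 33.4 in cKO and 23.7 and 14.9 in cHet. Col6a3 overlapped, at 11.6 and 4.92 in cKO and 5.28 and 4.82 in cHet. Col9a2 stood at 18.1 and 17.1 in cKO and 5.92 and 4.07 in cHet, and Col14a1 at 0.874 and 0.442 in cKO and 0.418 and 0.00332 in cHet. For Col6a2, Col6a1, Col9a2 and Col14a1 the groups did not overlap (exact permutation p = 0.333 each, two-sided, the smallest possible; adjusted p = 0.756 over 17 sums and ratios, of which 7 did not overlap). Col12a1 relative to Col1a1 did overlap, at 5.74 and 2.25 in cKO and 5.83 and 4.69 in cHet. A ratio to Col1a1 moves with Col1a1 too, which was listed at 2122200 and 2099810 scaled counts in cKO and 3673200 and 3370910 in cHet.

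**Figure D5:**
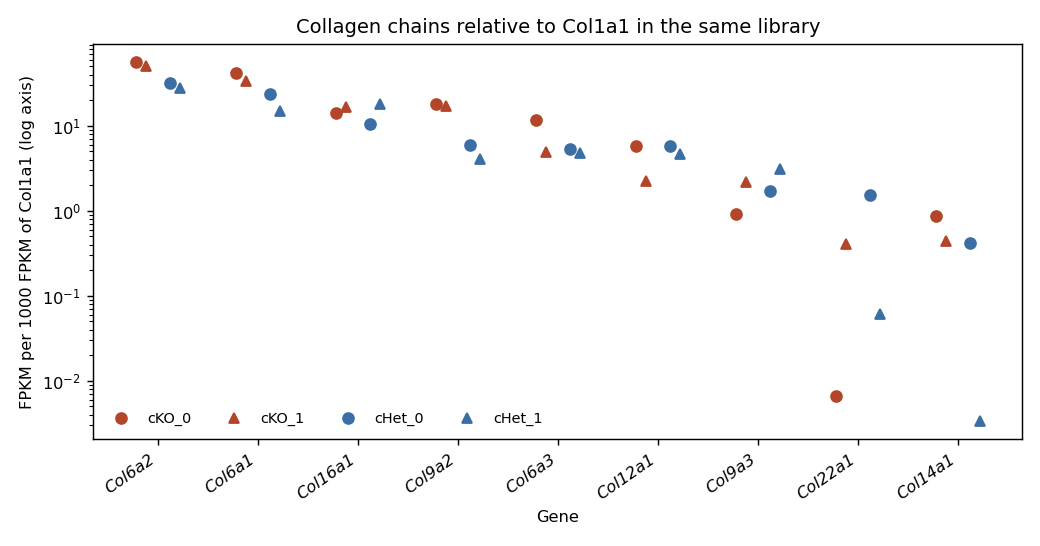
FPKM of each gene per 1000 FPKM of Col1a1 in the same library (log axis), cKO in red at the left and cHet in blue at the right of each gene, circles for libraries numbered 0 and triangles for those numbered 1. Col6a2, Col6a1, Col9a2 and Col14a1 lie higher in both cKO libraries, while Col6a3 and Col12a1 overlap between the groups.

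Ligands and receptors of these collagens were given by a list of 22 genes, of which 21 were tested. Limma called 0 higher and 0 lower, and the median log2 fold change was -0.24. Of the 21, 13 had fitted log2 fold changes below 0 and 8 above. In scaled counts the groups did not overlap for 8 lower and 2 higher in cKO, against 14.2% and 18% of all genes. The lowest p belonged to Dcn, decorin, a small proteoglycan that binds type VI and XIV collagen, at 19594 and 23248 scaled counts in cKO and 54343 and 46719 in cHet (log2 fold change -1.24, SE 0.23; adjusted p = 0.913). Lum, the related lumican, had a log2 fold change of -1.08 (SE 0.27), Postn, periostin of the ligament, -1.03 (SE 0.29), and Fn1, fibronectin, -0.67 (SE 0.26). Tnxb, tenascin-X, was listed at 0 in all libraries. The receptor genes named for type VI, Antxr1, Antxr2 and Cspg4, were named after their values were seen. Their groups overlapped, with log2 fold changes of -0.02 (SE 0.35) for Antxr1, -0.32 (SE 0.37) for Antxr2 and 1.18 (SE 0.81) for Cspg4.

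Markers of other cells moved with the groups or with single libraries. The Schwann cell list had summed levels of 38.4 and 113 FPKM in cKO and 21.9 and 15.3 FPKM in cHet over 6 genes, and the endothelial list 8.21 and 13.996 FPKM in cKO and 5.74 and 6.80 FPKM in cHet over 5 genes. Among the 6 Schwann cell markers 5 had fitted log2 fold changes above 0, and of 4 endothelial markers tested 3 did, with Pecam1 at 0 in cHet_0. The Schwann cell and endothelial sums were higher in both cKO libraries, as Col9a2 was. So was the epithelial sum, most of it Ambn. The other 3 epithelial markers had fitted log2 fold changes below 0 (Cdh1 -1.30, Epcam -2.12, Krt14 -0.42). The leukocyte sum was 14.9 and 87.4 FPKM in cKO and 11.3 and 68.8 FPKM in cHet over 4 genes. The libraries numbered 1 were the higher, as for Col9a3 and Col16a1. In FPKM only Lyz2 and Cd68 had that order in both groups. Csf1r had it in cKO but not in cHet (0.831 in cHet_0, 0.0266 in cHet_1), and Ptprc had it in neither group. Pericyte and smooth muscle markers, 5 genes, summed to 520 and 481 FPKM in cKO and 510 and 351 FPKM in cHet. Their part in the collagen values was not tested.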

How the data were processed

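RNA from tdTomato-positive dental follicle cells was isolated with a PicoPure kit and amplified with SMART-Seq v4, and libraries were made with Nextera XT, per the labels' protocols. The submitters' processing notes name the build mm10. They list TopHat2 (2.0.13) and Bowtie2 (2.2.1) beside HTSeq, DESeq2, FastQC, Cuffdiff and Cufflinks, without saying what each did. The values used are a signal unit: scaled counts that the authors deposited, named so in the file headers, of which most but not all are whole multiples of 1 step per library. The authors also deposited FPKM values. Another 16 per-sample columns could not be tied to a label by name and were left out. Column names number the libraries from 0 where titles start at 1, and each column was therefore tied to its group but not to a single sample. No raw counts could be assigned, so no count model was used.

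Genes reaching 10 scaled counts in 2 or more libraries were kept. Their log2(scaled count + 3) went into limma (version 3.58.1 under R 4.3.3) with its trend option and group as the only term, and p-values were adjusted over all 14297 genes (Benjamini-Hochberg, threshold 0.05, two-sided). Limma's standard errors draw each gene's spread toward that of genes of like abundance. Sums and ratios were compared by exact permutation of the 4 libraries. Amplified reads are not independent molecules, and the precision is set by the spread between libraries. Every member was named, and of each other list up to 4 genes with the lowest p, while Col1a1, Col2a1, Matn1, the other chains, receptors and markers given by value were chosen after their values were seen. The members and lists were chosen with earlier results of these data known.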

Additional observations from a re-analysis of the deposited data

How the results depend on the processing

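Across the 9 genes and 13 alternatives, 115 of 117 values kept their direction; the exceptions were Col6a3 without cHet_1 (log2 fold change 0.080) and without cKO_1 (0.066), in a range from -0.45 to 0.080, and the cause was not tested. Alternative scalings (median of ratios, upper quartile), pseudocounts of 1 and 10, no filter and the replicate block each called 0 genes higher and 0 lower. The block used the number in the column name. Libraries of the same number deviated from their group means with a correlation of 0.05 across genes, with 2 pairs, which does not pair the samples, although libraries of the same number were alike in scaled counts per FPKM. With FPKM, 3 genes were called higher and 4 lower at a pseudocount of 1, 1 higher and 1 lower at 0.1, and 0 in either direction with no filter. With 1 library left out, between 0 and 1061 genes were called higher and between 0 and 78 lower, the most without cHet_0, where the lone cHet_1 is assumed to vary like the cKO libraries. That setting alone called members, Col9a2, Col12a1 and Col14a1. With 1 library left out, the log2 ratio of summed FPKM lay between 0.11 and 0.23 for type VI (0.17 with all) and between -0.49 and 0.08 for the FACIT genes (-0.23 with all). Median-of-ratios scaling moved the median log2 fold change over all genes to 0.02, against 0.12 as deposited.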
